A study of Mus musculus with 12 samples.

Results

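Cyclic nucleotide phosphodiesterases were followed in mouse striatum through 10 genes: Pde10a, Pde1a, Pde1b, Pde1c, Pde2a, Pde4a, Pde4b, Pde4d, Pde7b and Pde8b. A probe set, a group of short array probes whose signals are combined into 1 value, was taken when the array's annotation pairs it with 1 of these genes alone. This gave 31 of the 45037 probe sets tested, for 10 of 18193 genes that have a probe set of their own. Pde1c and Pde4b had 6 probe sets each, Pde10a 5, Pde2a and Pde7b 3 each, Pde1a, Pde4d and Pde8b 2 each, and Pde1b and Pde4a 1 each.

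Striatal RNA of 12 mice was hybridised to Affymetrix mouse arrays, 1 array per mouse, with 3 mice in each of 4 groups. The Q92 mice were HdhQ92/Q92 knock-ins, in which both copies of the endogenous huntingtin gene carry 92 CAG repeats taken from exon 1 of the human gene, so the allele was carried by every cell and driven by the gene's own promoter. The controls were wild type, and the strain label was C57BL/6 for all mice. The young groups were wild type (1 female aged 103 days, and males aged 103 and 100 days) and Q92 (2 females aged 103 days and 1 male aged 100 days), called 3 months here as in the labels. The old groups, called 18 months, were wild type (females aged 604 and 596 days, and 1 male aged 596 days) and Q92 (females aged 567 and 574 days, and 1 male aged 596 days). Values are log2 signals, so a difference of 1 is a doubling, and a level can be compared between mice for 1 probe set but not between probe sets or genes. The tests used limma with Benjamini-Hochberg adjustment over all 45037 probe sets, and a probe set is said to have changed, risen or fallen only where its adjusted p was below 0.05.

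Phosphodiesterases hydrolyse the second messengers cyclic AMP and cyclic GMP and so end the signals that dopamine, adenosine and nitric oxide start through the cyclases. Medium spiny projection neurons, the principal neurons of striatum, are known for a high content of Pde10a, which degrades both messengers, of the calcium- and calmodulin-stimulated Pde1b, and of the cyclic AMP-specific Pde7b. Pde2a degrades both messengers and is stimulated by cyclic GMP, while the Pde4 enzymes and Pde8b are specific for cyclic AMP.

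The regions before the transcription start sites of Pde10a, Pde1b and Pde7b are shown because Pde10a and Pde1b hold the probe sets that passed a test below, and the brightest Pde7b probe set had the highest correlation with that of Pde10a among the members. The sequences are the 250 bases before a start in RefSeq's annotation of GRCm38.p6, written 5′ to 3′ on the gene's strand, and capitals mark a GC box (GGGCGG on either strand). Pde10a has 2 such windows in the table, Pde1b 3 and Pde7b 1; of the Pde1b windows the most upstream is printed.

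Pde10a, upstream start, chr17:8801495-8801744, plus strand: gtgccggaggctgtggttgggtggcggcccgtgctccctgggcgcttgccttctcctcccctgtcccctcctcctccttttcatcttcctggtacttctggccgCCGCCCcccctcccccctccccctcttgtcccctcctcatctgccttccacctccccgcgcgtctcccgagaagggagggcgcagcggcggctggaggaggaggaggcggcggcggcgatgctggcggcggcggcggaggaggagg
Pde10a, downstream start, chr17:8849735-8849984, plus strand: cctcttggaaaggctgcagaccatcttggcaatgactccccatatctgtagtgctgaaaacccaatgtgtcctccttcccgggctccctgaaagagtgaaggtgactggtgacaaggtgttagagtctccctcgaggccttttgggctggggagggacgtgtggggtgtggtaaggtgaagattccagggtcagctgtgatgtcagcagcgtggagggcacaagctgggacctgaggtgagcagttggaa
Pde1b, most upstream start, chr15:103502784-103503033, plus strand: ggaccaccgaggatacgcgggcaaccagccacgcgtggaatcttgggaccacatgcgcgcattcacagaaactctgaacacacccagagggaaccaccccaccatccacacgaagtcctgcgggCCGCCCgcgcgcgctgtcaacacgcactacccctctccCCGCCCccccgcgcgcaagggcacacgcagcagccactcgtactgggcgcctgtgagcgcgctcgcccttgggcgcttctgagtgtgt
Pde7b, chr10:20548329-20548578, minus strand: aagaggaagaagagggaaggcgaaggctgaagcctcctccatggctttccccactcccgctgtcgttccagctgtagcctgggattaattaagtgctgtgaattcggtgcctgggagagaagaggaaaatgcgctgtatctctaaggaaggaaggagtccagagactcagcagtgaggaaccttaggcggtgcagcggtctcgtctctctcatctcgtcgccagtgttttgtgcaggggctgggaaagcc

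The upstream window of Pde10a was 72.8% G and C and held 1 GC box, which begins 146 bases before the start. The downstream window was 56.0% G and C and held none. The Pde1b window was 67.2% G and C and held 2 GC boxes, the nearer beginning 88 bases before the start, and the Pde7b window was 55.2% G and C and held none. Over all 10 genes the table gave 31 windows, some of which overlap (in Pde2a and Pde8b). A GC box was found in 7 of the 31, against 32.7% of 32841 windows of the same length over all genes. The cyclic AMP response element TGACGTCA was in 0 of the 31 (1.55% of all windows), and its core TGACG, which that element contains, was in 3 (17.8% of all). TATAAA was in 2 (12.4% of all). Both strands were searched. The median window over all genes was 52.4% G and C.

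All arrays correlated with each other between 0.983 and 0.995. Lowest in mean correlation with the rest were the arrays of the 3-month wild-type mouse wt_3m_467 (0.987) and Q92 animal 66 at 18 months (0.988). The tissue label was checked against 18 marker genes of projection neurons that are no members (among them Ppp1r1b, Drd1, Drd2, Penk and Tac1). All 16 that have a probe set lay between the 74.2nd and 99.3rd percentile of mean signal. Old Q92 mice differed from each other in marker lists of neighbouring tissue. Cortical excitatory neuron markers averaged 0.60 below the mean of the 12 arrays in animal 66. In animals 11 and 25 they averaged 0.89 and 0.94. Thalamic neuron markers averaged 1.12 above the mean in animal 66, and -0.85 and -0.61 in animals 11 and 25. Young mice and old wild-type mice lay between -0.44 and 0.24 on the cortical list and between -0.68 and 0.72 on the thalamic list. On the cortical list animals 11 and 25 were therefore further from those mice than animal 66 was. Choroid plexus markers averaged 2.06 above the mean in young mouse Q92_3m_439 and 1.89 above it in old wild-type animal 12, and lay between -1.01 and 0.62 in the rest. The leading results that rest on old Q92 mice are given below with and without animal 66. Values without animal 66 still hold the cortical marker difference of animals 11 and 25.

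Of the 31 probe sets, 23 lay above the 40th percentile of mean signal over all arrays and 8 did not: 4 of the 6 for Pde1c, 3 of the 6 for Pde4b and 1 of the 2 for Pde1a. All 31 stayed in the tests.

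The first question was whether phosphodiesterase transcripts differ between genotypes in old striatum. Pde10a was lower in old Q92 mice on all 5 of its probe sets, from 1.38-fold to 2.45-fold, and 1 of them passed the test. Without animal 66 the range was 1.09-fold to 2.09-fold. Means for Pde1b and for all 3 Pde7b probe sets were lower as well, by 1.68-fold and by 1.37-fold to 1.499-fold, without passing. In the other direction, the brightest probe sets of Pde1a and Pde4d had higher means, by 1.60-fold and 1.27-fold, and did not pass. In all, 1 of 31 member probe sets changed, with the lower value in Q92, against 0.0533% of all probe sets tested (0.0377% with the lower value).

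On the probe set that passed, Pde10a 1458499_at, old wild-type mice gave log2 signals of 11.06, 10.70 and 10.83, and old Q92 mice gave 9.85, 10.002 and 9.21. The groups did not overlap, and Q92 animal 66 was the lowest. The difference was -1.18 (SE 0.18, 2.26-fold lower, limma adjusted p = 0.0467), and without animal 66 it was -0.94 (adjusted p = 0.0473). The call was lost without any 1 of old wild-type animals 9 (-1.08, adjusted p = 0.195), 12 (-1.26, 0.0783) and 17 (-1.19, 0.108) or without Q92 animal 11 (-1.26, 0.0689). It was also lost when sex was in the model (-1.18, adjusted p = 0.0761).

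Larger in size was the difference of Pde10a 1419390_at, whose old wild-type values were 8.93, 8.17 and 8.44 and whose old Q92 values were 7.53, 7.37 and 6.77. These groups were apart as well, and the spread among the wild-type mice (SD 0.39, n = 3) was wider than on 1458499_at (SD 0.18, n = 3). The difference of -1.29 (SE 0.21) had a limma adjusted p of 0.0577, on the other side of the threshold, with a range of 0.0560 to 0.212 when each compared mouse was left out in turn (-1.07 and 0.122 without animal 66).

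For Pde10a 1432490_a_at the old wild-type mice read 8.85, 8.44 and 8.70 and the old Q92 mice 8.03, 8.19 and 7.27, a difference of -0.83 (SE 0.21, limma adjusted p = 0.232; -0.55 without animal 66). On the brightest, 1439618_at, they read 10.91, 11.24 and 11.38 against 10.64, 10.68 and 10.28, a difference of -0.64 (SE 0.20, adjusted p = 0.389). On both of these the 3 old Q92 mice lay below the 3 old wild-type mice. Pde10a 1419389_at was the exception: wild-type values of 9.84, 9.99 and 9.74 overlapped Q92 values of 9.66, 9.80 and 8.72, with animal 66 alone far below, and the difference was -0.46 (SE 0.28, adjusted p = 0.748; -0.12 without animal 66).

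**Figure D1:**
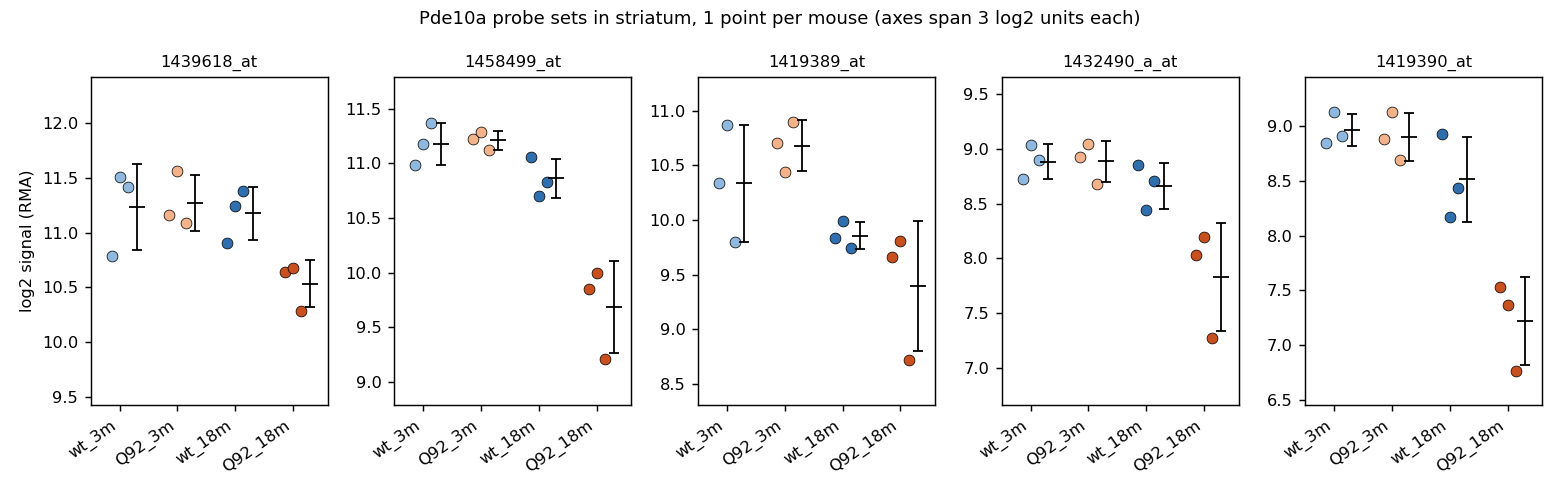
Log2 signal (RMA) of the 5 Pde10a probe sets in each mouse, in the 4 groups of 3; each point is 1 mouse, and bars are the mean and SD, with axes spanning the same number of log2 units. Old Q92 mice lie below every other mouse in all panels except 1419389_at, where 1 of them (9.80) lies within the range of the old wild-type mice.

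These 5 probe sets are different reporters of 1 gene, and their differences between genotypes ranged from -1.29 to -0.46. Probe sets 1419389_at and 1419390_at are annotated with the same sequence record and were the ones with the smallest and the largest difference. The gap between them (1419389_at minus 1419390_at) was 0.90, 1.82 and 1.304 in old wild-type mice and 2.13, 2.44 and 1.95 in old Q92 mice. Among old mice all 3 Q92 gaps exceeded all 3 wild-type gaps, by 0.83 on average. In young mice the gap was 1.49, 1.74 and 0.89 in wild type and 1.82, 1.303 and 2.20 in Q92. The gap of young mouse Q92_3m_466 (2.20) lay above those of 2.13 and 1.95 in old Q92 mice. A wide gap was therefore not particular to old Q92 mice. The pair was chosen for its difference between the old genotypes, so the gap is a description with no test.

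Whether a probe set moved unlike the rest of its gene was tested across the array as its value minus the mean of the gene's other probe sets, in 25762 probe sets of 9010 genes. No member probe set passed (0 of 29, against 0.0582% of all), and 5 of the 29 had an unadjusted p below 0.05 (7.17% of all). In a gene with 2 probe sets the deviations mirror each other. Both Pde1a probe sets (0.64 and -0.64) are among the 5 and are 1 result, with 1431625_at near the floor. The smallest adjusted p was that of Pde10a 1419390_at, whose value relative to the others of its gene differed by -0.52 log2 units between old Q92 and old wild-type mice (SE 0.16, limma adjusted p = 0.523). Pde10a 1458499_at had -0.37 (adjusted p = 0.583), and in the other direction 1419389_at and 1439618_at had 0.53 (0.712) and 0.30 (0.829). Across the 12 arrays the 10 pairs of Pde10a probe sets had Pearson correlations from 0.62 to 0.98, a description over mice that differ in genotype and age. Averaged over its 5 probe sets, Pde10a was 0.88 lower (SE 0.17, limma adjusted p = 0.0774 over genes).

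Pde1b, the calmodulin-stimulated enzyme of projection neurons, has 1 probe set, which read 11.58, 11.09 and 11.42 in old wild-type mice and 10.75, 10.79 and 10.29 in old Q92 mice. The groups did not overlap. The difference was -0.75 (SE 0.15, limma adjusted p = 0.137), and -0.59 without animal 66 (adjusted p = 0.217).

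Pde7b was lower on each of its 3 probe sets with no overlap of the old groups. The brightest, 1445539_at, read 10.58, 10.48 and 10.28 in wild-type and 9.93, 10.05 and 9.61 in Q92 mice, a difference of -0.58 (SE 0.13, limma adjusted p = 0.196). Probe set 1450213_at had -0.53 (adjusted p = 0.495) and 1421353_at -0.45 (0.490). Without animal 66 the 3 differences were -0.46, -0.33 and -0.29. Deviations of these 3 reporters from the rest of their gene were between -0.09 and 0.10.

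The other enzymes of both messengers were less uniform. Pde2a was lower by 0.24 on 1447707_s_at, where wild-type values of 11.67, 11.48 and 11.56 lay above Q92 values of 11.41, 11.41 and 11.19 (limma adjusted p = 0.595). Its other probe sets had -0.41 (1452202_at) and -0.15 (1447708_x_at), with adjusted p of 0.636 and 0.784, and 1452202_at had -0.17 without animal 66. Pde1c, calmodulin-stimulated like Pde1b, read 7.47, 7.42 and 7.21 in wild-type and 6.73, 7.06 and 6.70 in Q92 mice on its brightest probe set, 1440374_at (-0.54, SE 0.14, adjusted p = 0.262). Of its other probe sets, 1429643_a_at had -0.39 (adjusted p = 0.410), 1436251_at -0.22, 1426036_a_at -0.14, 1444067_at -0.13 and 1444386_at 0.24, and all of these but the last were dim.

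Pde1a, the third calmodulin-stimulated enzyme, had the highest difference of all members on 1449298_a_at. Its old wild-type values were 5.99, 5.21 and 5.52 and its old Q92 values 6.45, 6.58 and 5.72, so that animal 66 fell inside the wild-type range. The difference was 0.68 (SE 0.25, limma adjusted p = 0.513), and 0.95 without animal 66 (adjusted p = 0.223). Its second probe set, 1431625_at, was near the floor of the array, with means between 2.74 and 2.83 in the 4 groups.

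Among the cyclic AMP-specific enzymes, Pde4d 1435280_at was the 1 probe set on which old Q92 mice (8.33, 8.16 and 8.14) lay above all other mice, including old wild-type mice (7.84, 7.75 and 8.00). The difference was 0.35 (SE 0.11, limma adjusted p = 0.407), and the dimmer Pde4d 1459311_at had 0.32 (adjusted p = 0.819). Pde4b 1422474_at read 9.69, 9.62 and 9.64 in wild-type and 9.52, 9.48 and 8.80 in Q92 mice. The groups were apart, but the difference of -0.38 (adjusted p = 0.577) became -0.15 without animal 66.

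None of the remaining cyclic AMP-specific reporters passed. Pde4b 1422473_at differed by -0.05 (95% confidence interval -0.35 to 0.25), 1442700_at by -0.33 (-0.76 to 0.11) and Pde4a by -0.01 (-0.36 to 0.34). Pde8b had -0.29 (limma adjusted p = 0.666) on 1435741_at and -0.03 on 1437989_at. Animal 66 was the lowest of the old mice on all of these. Without it the differences were 0.03, -0.21 and 0.18 for the first 3, and -0.10 and 0.27 for Pde8b, so that the sign turned on 1422473_at, Pde4a and 1437989_at. The dim Pde4b probe sets 1444731_at, 1446577_at and 1447718_at had -0.03, 0.05 and 0.08. The intervals of Pde4a and 1422473_at over all mice leave room for a change in either direction, so these values do not show that the genes stayed level.

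**Figure D2:**
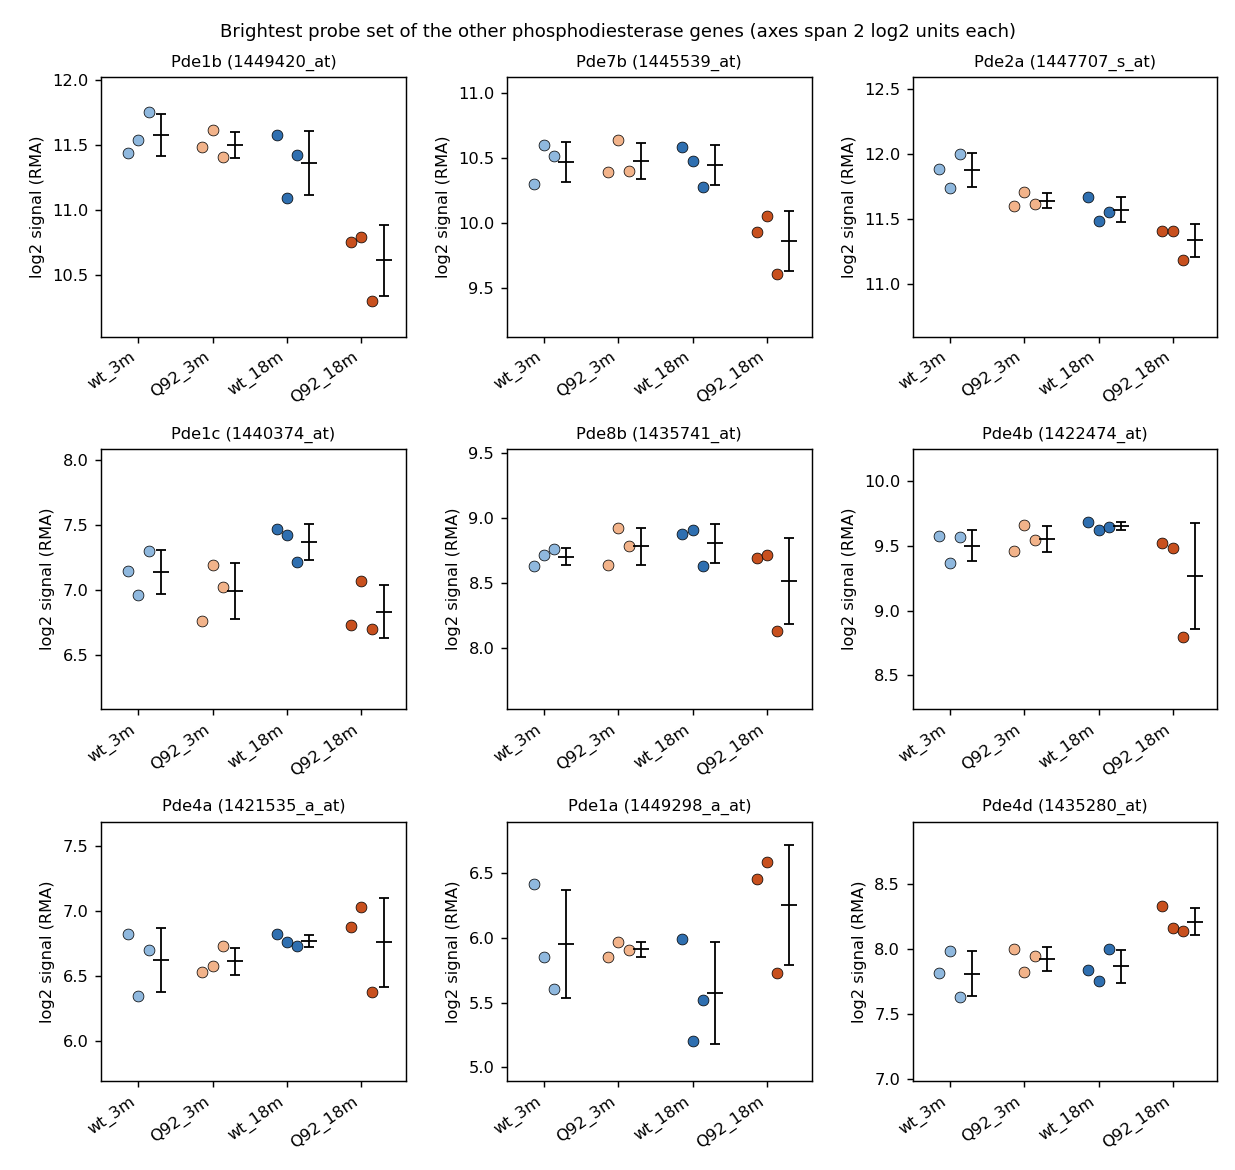
Log2 signal (RMA) of the brightest probe set of each of the other 9 genes, 1 point per mouse, with the mean and SD of each group of 3; every axis spans the same number of log2 units. Pde1b, Pde7b and Pde2a are lowest in old Q92 mice, Pde4d is highest there (8.14 to 8.33), and Pde4b and Pde8b are low in 1 old Q92 mouse.

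Counted over the 31 probe sets, means were lower in old Q92 mice for 24 and higher for 7. The median difference was -0.24, against 0.01 over all probe sets tested. Leaving out animal 66 gave 21 below and 10 above 0, and the median became -0.15. The old groups did not overlap on 14 probe sets with Q92 lower (6.76% of all) and on 1 with Q92 higher (7.02% of all). An unadjusted p below 0.05 was reached by 14 of the 31, 12 of them lower, against 7.9% of all in either direction and 4.24% lower. Within the 23 brighter probe sets the median was -0.38, and in the 8 dim ones it was -0.08. Of the 12 lower probe sets with an unadjusted p below 0.05, Pde10a gave 4, Pde7b 3 and Pde1b 1. Judged by the brightest probe set alone, 8 of the 10 genes lay below wild type in old Q92 mice and 2 above. Probe sets of the same gene are not independent, and the members were chosen with earlier results known. Setting member counts beside shares of all probe sets is therefore no test, here and in the other comparisons.

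Markers of projection neurons had lower means in old Q92 mice, as did all probe sets of Pde10a, Pde1b and Pde7b. The probe sets of Pde1a and Pde4d had higher means. The marker values are therefore given beside the members. All 16 measured markers had lower means in old Q92 mice, with a median difference of -0.84, and 1 of them (Penk) passed the test. The average over the 16 markers, relative to the 12-array mean, was -0.52, -0.33 and -1.04 in old Q92 animals 11, 25 and 66, and lay between 0.07 and 0.42 in the 9 other mice. Markers of cortical excitatory neurons had a median difference of 0.58 (9 of 9 higher, 0 passed) and ranged from -0.60 to 0.94 among old Q92 mice. Those of thalamic neurons had -0.53 (6 of 7 lower, 0 passed), those of astrocytes -0.24 (7 of 7 lower, 0 passed) and those of microglia -0.26 (6 of 8 lower, 0 passed). Medians were -0.13 for oligodendrocytes (5 of 7 lower), -0.16 for vascular cells (7 of 7), -0.06 for interneurons (4 of 7) and -0.20 for choroid plexus (6 of 7), again with 0 passed. None of the projection neuron, cortical, thalamic, astrocyte or microglia markers measured lay below the 40th percentile of mean signal. The part of these markers' cells in the phosphodiesterase differences was not tested, and in RNA of whole striatum fewer cells of a type and less RNA per cell cannot be told apart.

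The control probe sets for 18S ribosomal RNA, which report the make-up of the labelled RNA, averaged 5.87 ± 0.10 (SD, n = 3) in old wild-type mice and 6.82 ± 0.80 (SD, n = 3) in old Q92 mice. With this signal as a covariate the difference of Pde10a 1458499_at was -1.03 (limma adjusted p = 0.173). With a block for age in days, it was -0.91 (adjusted p = 0.354). That block compares genotypes at 18 months only within the mice aged 596 days, 1 Q92 and 2 wild type.

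**Figure D3:**
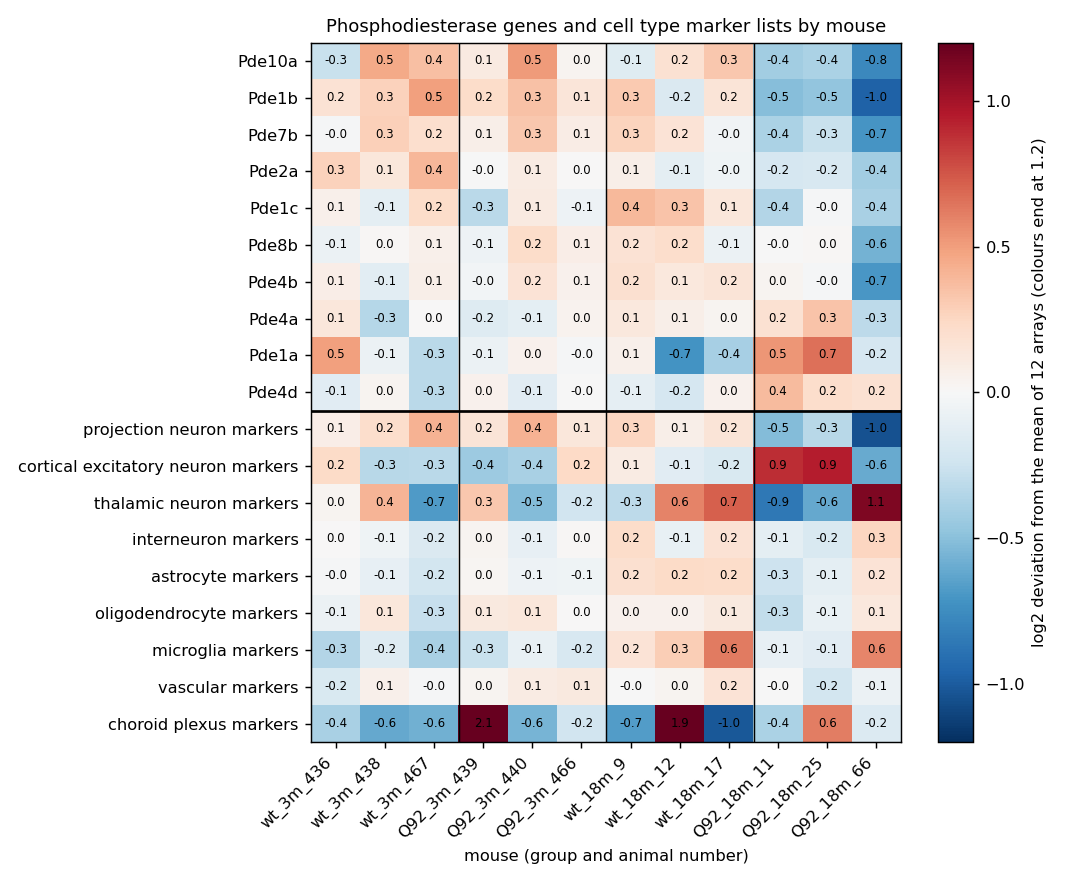
Heat map of the deviation from the 12-array mean (log2; colours end at 1.2) for the brightest probe set of each phosphodiesterase gene (top) and the average of each cell type marker list (bottom), with 1 column per mouse in group order. Pde10a, Pde1b and Pde7b are below the mean in all 3 old Q92 mice, as are the projection neuron markers (-1.04 to -0.33), while the cortical and thalamic lists differ in sign between old Q92 animal 66 and the other old Q92 mice.

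The genotypes were then compared in young striatum. At 3 months no member probe set changed (0 of 31, against 0.0111% of all), and 1 had an unadjusted p below 0.05 (2.64% of all). The 5 Pde10a probe sets had differences from -0.06 to 0.35, Pde1b had -0.07, and Pde7b from -0.01 to 0.04. For Pde10a 1458499_at, young wild-type mice read 10.98, 11.18 and 11.37 and young Q92 mice 11.23, 11.29 and 11.12, so the groups overlapped (0.03, 95% confidence interval -0.36 to 0.42). The 1 probe set with a small unadjusted p was Pde2a 1447707_s_at, with every young wild-type mouse at 11.74 or above and every young Q92 mouse at 11.71 or below (-0.23, SE 0.10, unadjusted p = 0.0371, limma adjusted p = 1.00). Those groups did not overlap, which held with Q92 lower for 4.35% of all probe sets. Its fellow Pde2a probe sets had -0.05 and 0.01. The median over the 31 was 0.02, against -0.01 over all.

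Whether the genotype difference itself differed between the ages was tested as an interaction, the difference at 18 months minus that at 3 months. No member probe set passed, nor did any probe set on the array (0%), and 6 of the 31 had an unadjusted p below 0.05, all with the lower difference at 18 months (5.18% of all in either direction, 2.71% lower). These 6 were 4 probe sets of Pde10a, Pde1b and Pde7b 1445539_at. The size was greatest for Pde10a 1419390_at (-1.24, limma adjusted p = 0.804) and 1458499_at (-1.21, adjusted p = 0.615), followed by 1432490_a_at (-0.84, 0.946). Pde1b had -0.68 (adjusted p = 0.935) and Pde7b 1445539_at -0.59 (0.935). An age dependence of the genotype difference was therefore not shown for any member.

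Ageing in wild-type striatum changed no phosphodiesterase probe set (0 of 31, against 0.0511% of all), and 2 had an unadjusted p below 0.05 (10.6% of all in either direction, 5.3% lower). Both were Pde2a and lower: 1447707_s_at averaged 11.87 ± 0.13 (SD, n = 3) in young and 11.57 ± 0.10 (SD, n = 3) in old mice, a difference of -0.30 (limma adjusted p = 0.339), and 1447708_x_at differed by -0.25 (adjusted p = 0.438). The third Pde2a probe set, 1452202_at, had 0.01. Pde10a had differences between -0.48 and -0.06, Pde1b -0.21 and Pde7b between -0.29 and -0.03. The brightest Pde1c probe set was higher in old wild-type mice by 0.23 (adjusted p = 0.581).

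In Q92 mice the step from 3 to 18 months changed 3 member probe sets, all lower, against 0.206% of all probe sets in either direction and 0.164% with a lower value. They belong to Pde10a (2 of 5) and Pde1b. This comparison and that of genotypes at 18 months share the 3 old Q92 arrays, so they are not independent of each other.

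Pde10a 1419390_at read 8.89, 9.14 and 8.70 in young Q92 mice against 7.53, 7.37 and 6.77 in old ones. The groups were far apart, and the fall was 1.69 log2 units (SE 0.21, 3.22-fold, limma adjusted p = 0.0139; -1.46 and 0.0403 without animal 66). Pde10a 1458499_at fell by 1.52 (SE 0.18, 2.87-fold, adjusted p = 0.00989; -1.28 and 0.0109 without animal 66). Without young mouse Q92_3m_440 neither passed (adjusted p = 0.0930 and 0.0860), and without young mouse Q92_3m_439 the first did not (0.0621). The other Pde10a probe sets had -1.29 (1419389_at, adjusted p = 0.111), -1.06 (1432490_a_at, 0.0755) and -0.74 (1439618_at, 0.185), with no overlap of young and old on any of the 5. Probe set 1419389_at, which overlapped between the old genotypes, read 10.71, 10.44 and 10.90 in young Q92 mice and 9.66, 9.80 and 8.72 in old ones. Its wild-type values also differed between the ages by -0.48 without passing (limma adjusted p = 0.575).

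Pde1b fell by 0.89 (SE 0.15, 1.85-fold, limma adjusted p = 0.0403), from 11.48, 11.61 and 11.41 in young Q92 mice to 10.75, 10.79 and 10.29 in old ones. The young and old mice did not overlap. The call did not survive leaving out any 1 of these 6 mice (adjusted p between 0.0523 and 0.203, differences between -0.98 and -0.73), nor sex as a covariate (0.0621).

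The Pde7b probe sets had -0.86 (1450213_at, limma adjusted p = 0.109), -0.63 (1421353_at, 0.157) and -0.62 (1445539_at, 0.109), each with no overlap. Pde4d had the higher mean in old Q92 mice on both probe sets. On 1459311_at young values of 3.79, 3.87 and 4.84 stood against old values of 4.91, 5.10 and 4.75, a difference of 0.75 (SE 0.24, adjusted p = 0.268). Young mouse Q92_3m_466 alone overlapped the old mice, and without it the difference was 1.09 (adjusted p = 0.0415). That was the only 1 of 6 fits leaving out a compared mouse that passed. Differences in these fits went down to 0.57, and adjusted p went up to 0.619. In wild-type mice this probe set differed between the ages by 0.36 (limma adjusted p = 0.620). On 1435280_at the difference was 0.29 (adjusted p = 0.374). Across the 31 probe sets the median was -0.21, against -0.01 over all. An unadjusted p below 0.05 was reached by 14, 12 of them lower (10.6% of all in either direction, 5.08% lower). Young and old did not overlap on 13 with old lower (7.62% of all) and on 1 with old higher (7.83%). In this comparison all 16 projection neuron markers had lower means, with a median of -0.92, and 4 passed. Cortical markers had a median of 0.84 (7 of 9 higher), microglial markers 0.45 (5 of 8 higher) and choroid plexus markers -0.44 (6 of 7 lower), with 0 passed in each. Astrocyte markers had -0.15 (6 of 7 lower, 1 passed), vascular markers -0.20 (7 of 7 lower) and oligodendrocyte markers -0.13 (7 of 7 lower), and the thalamic and interneuron lists had 0.04 and 0.13. The part of any of these in the falls of Pde10a and Pde1b was not tested.

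**Figure D4:**
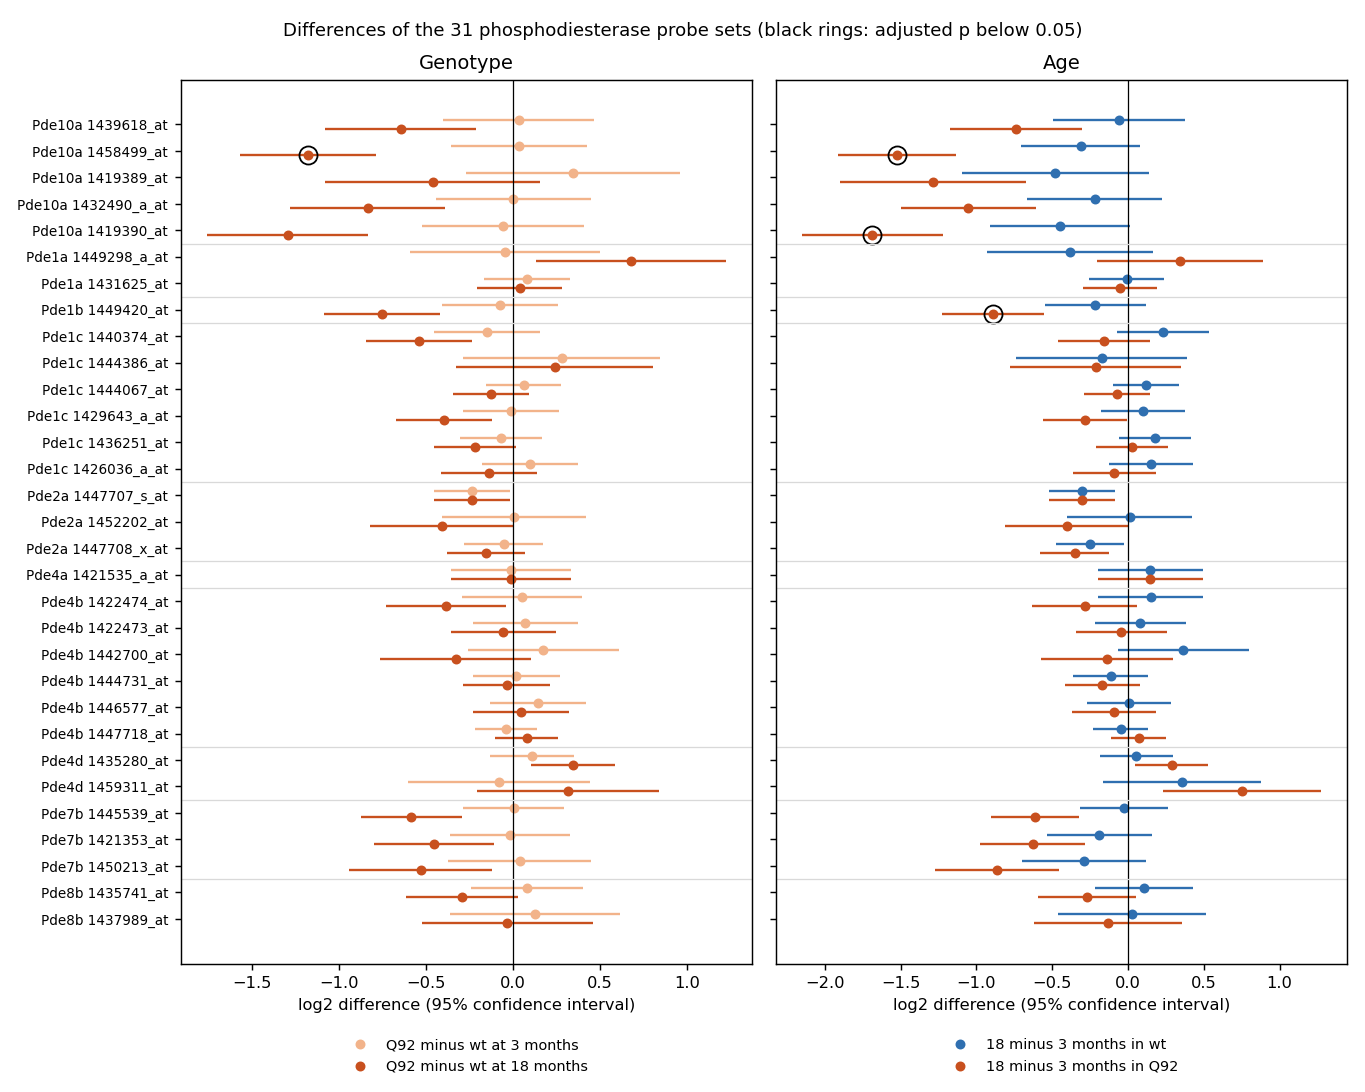
Log2 differences with 95% confidence intervals (limma) of all 31 probe sets, by genotype (left, Q92 minus wild type) and by age (right, 18 minus 3 months); black rings mark adjusted p below 0.05. The ringed points are Pde10a 1458499_at on the left (-1.18) and Pde10a 1458499_at, 1419390_at and Pde1b on the right (-1.52, -1.69 and -0.89). Genotype differences in young mice lie between -0.23 and 0.35, and none is ringed.

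Over all 12 mice the 3 old Q92 mice were the lowest 3 on 10 member probe sets, 4 of Pde10a, 3 of Pde7b, 2 of Pde2a and 1 of Pde1b, against 1.81% of all probe sets. They were the highest 3 on 1, Pde4d 1435280_at, against 1.28% of all. For Pde10a, the order of group means on 1458499_at was Q92 at 3 months (11.21 ± 0.09), wild type at 3 months (11.18 ± 0.19), wild type at 18 months (10.86 ± 0.18) and Q92 at 18 months (9.69 ± 0.42; all SD, n = 3). The first 3 neighbours in that order did not pass the test against each other where compared (limma adjusted p = 1.00 between genotypes at 3 months and 0.567 between ages in wild type), and the step to the last did.

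The genes whose pattern over the 12 arrays was most like that of the brightest Pde10a probe set, 1439618_at, were ranked among 12752 genes by Pearson correlation, as a description over arrays that share group, tissue and processing. They were Thsd7a (0.976), Cnr1 (0.945), Tomm70a (0.940), Spock3 (0.938) and Pcp4l1 (0.937). Cnr1, the cannabinoid receptor CB1, is also in the projection neuron marker list. Among the brightest probe sets of the members themselves, Pde7b (0.85) and Pde1b (0.82) were nearest to 1439618_at, and Pde4d (-0.59) and Pde1a (-0.48) had the most negative values. The other Pde10a probe sets had correlations with 1439618_at from 0.62 (1419389_at) to 0.84 (1432490_a_at). Pde7b and the genes named from the ranking were thus nearer to it than its fellow Pde10a probe sets. As 1439618_at passed in no comparison, the ranking describes this probe set and not the Pde10a probe sets that passed.

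Of 14 other genes named as phosphodiesterases or their subunits, 13 were measured, each by its brightest probe set (Pde4c had no probe set of its own). Of the 13, 7 were at or below the 40th percentile. None of the 13 changed in any of the 5 comparisons, and 0 to 3 per comparison had an unadjusted p below 0.05. At 18 months 12 had a higher mean in Q92 and 1 a lower, with a median of 0.05, and 1 had an unadjusted p below 0.05. That was Pde8a, a cyclic AMP-specific relative of Pde8b, with 8.36, 8.52 and 8.32 in old wild-type mice and 7.79, 8.17 and 7.74 in old Q92 mice. These did not overlap (-0.50, SE 0.13, limma adjusted p = 0.282). Pde8a was also higher in old than in young wild-type mice by 0.49 (adjusted p = 0.259). Next in size at 18 months were Pde5a (0.22, adjusted p = 0.740) and Pde6d (0.13, 0.849).

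The enzymes that make cyclic AMP and cyclic GMP, 17 of 18 cyclase genes measured, gave no change in any comparison either (0 to 4 per comparison at an unadjusted p below 0.05). At 18 months 3 had an unadjusted p below 0.05, and the median was 0.05. Adcy5, the main adenylyl cyclase of striatum, read 11.14, 11.02 and 11.02 in old wild-type and 10.12, 10.43 and 9.62 in old Q92 mice. The groups were apart (-1.01, SE 0.20, limma adjusted p = 0.123). Adcy1, a calmodulin-stimulated cyclase, had 0.45 (adjusted p = 0.495), and Gucy1a1, a subunit of the nitric oxide-sensitive guanylyl cyclase, had -0.34 (0.509); these were the other two. Adcy7 had -0.45 with an adjusted p of 0.812.

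Of 28 genes that cyclic nucleotides act on, 23 were measured: protein kinase A and G subunits, exchange factors, gated channels and kinase targets. At 18 months 0 changed, 3 had an unadjusted p below 0.05, and the median was -0.08. The 3 were targets of protein kinase A: Ppp1r1b, which encodes DARPP-32 (-0.96, limma adjusted p = 0.180), Arpp19 (-0.84, 0.194) and Arpp21 (-0.83, 0.0868). From 3 to 18 months in Q92 mice 1 of the 23 changed, against 0.206% of all probe sets, and 5 of the 23 had an unadjusted p below 0.05. Arpp21 fell by 0.94 (SE 0.15, limma adjusted p = 0.0327), from 11.68, 11.90 and 11.71 to 11.07, 11.02 and 10.39. The last of these values is that of animal 66, and no value without it is given for this call. Arpp19 had -0.96 (adjusted p = 0.0808). Adcy5 and Ppp1r1b also stand in the projection neuron marker list.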

How the data were processed

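Striatal RNA of 12 mice was measured on 12 arrays. The authors deposited log2 signals, 1 per probe set and array; RMA and affy are named for this step, with no versions, per the submitters' processing notes. It is not stated there whether RMA was run on the 12 arrays at once. Since RMA evens out total signal, a difference is relative to the other transcripts of an array.

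Of 45101 probe sets 64 controls were left out. Gene names came from the platform annotation: 34945 probe sets had 1 gene, 932 several and 9160 none. Groups were taken from the labels. Using limma 3.58.1 in R 4.3.3, group means were estimated from all 12 arrays (8 residual and 4.50 prior degrees of freedom). The 5 comparisons were adjusted by Benjamini-Hochberg over 45037 probe sets at 0.05. The number of arrays limits the precision (median SE of a difference 0.12).

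The members and gene lists were chosen with earlier results of these data known. Every member gene is named with its probe sets. From each other list, genes that passed are named, otherwise those of largest difference. Other scalings, filters, priors, covariates and left-out arrays were tried as alternatives. The fit was tested on simulated data with normal noise drawn independently for each probe set and array. Of 100 probe sets changed by 1 log2 unit between genotypes at 18 months, 81% were recovered, and 10 unchanged probe sets were called. Variation shared by the probe sets of an array was not simulated, so 81% need not hold for the members. Promoter windows were matched by symbol for 10 of 10 members.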

Additional observations from a re-analysis of the deposited data

How the results depend on the processing

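At 18 months the count of 1 changed member probe set between genotypes became 2 with quantile normalisation or with array weights (both adding Pde10a 1419390_at, adjusted p = 0.0468 and 0.0394). It became 0 with a shift to a common median (1458499_at at -1.19, adjusted p = 0.0549), 18S signal or sex in the model, only the compared arrays fitted (-1.18, 0.173) or a block for age in days, and 0 to 1 when each mouse was left out in turn. From 3 to 18 months in Q92 mice the count of 3 became 5 with 18S signal as a covariate (adding Pde10a 1432490_a_at and Pde7b 1450213_at) and 0 to 3 when each mouse was left out: 1 without Q92_3m_439 and 0 without Q92_3m_440. The cause was not tested. A shift to a common median (adjusted p = 0.0560), a fit to only the arrays compared (0.112), and leaving out both arrays of lowest correlation (0.0934) ended the Pde1b call. The other 3 comparisons and the test between probe sets of a gene gave 0 under each alternative run. Of 616 values for 37 single results, 587 kept direction and side of the threshold, 22 lost the call, 7 gained it and 0 reversed. The 37 were chosen for an unadjusted p below 0.05 in the main fit. Only the 1 called between genotypes at 18 months and the 3 called by age in Q92 mice had a call to lose. Most of the 587 belong to results without a call, so they do not measure how stable the calls were. The day block could not be fitted for age comparisons, since no day is shared between ages; it and the fit to only the arrays compared were not run for the interaction. No paired analysis was possible because the animal numbers differ between all groups. Detection calls were not used here, so no bound was set for dim probe sets.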
